A study of Mus musculus with 6 samples.

Results

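The DUSP, Sprouty and Spred genes are feedback brakes on growth factor signalling, and 10 of them were followed here among the 18743 annotated genes listed in any library of the series. They are Dusp1, Dusp2, Dusp4, Dusp5 and Dusp6 on one side and Spry1, Spry2, Spry4, Spred1 and Spred2 on the other. The genes were picked by name with the hemin against vehicle values of these same libraries in view, so that contrast is given for them as a description and carries no test. The cells were oligodendrocyte progenitor cells (OPCs), which divide and later mature into myelin-forming cells, taken with magnetic beads against PDGFRα from the cortex of wild type C57BL/6 mouse pups. The pups are labelled as postnatal day 1, while the growth protocol gives days 0 to 2. The cultures were expanded for 3 days. They were then kept for 12 h in 50 µM hemin, a form of heme whose iron is oxidised, or in vehicle, 0.25% DMSO; whether the hemin cultures also held DMSO is not stated. All 6 libraries are therefore from wild type cells sorted and expanded in the same way, and they differ by label only in treatment and replicate number (3 hemin, 3 vehicle). The title of the series places the cultures in a study of ferroptosis after bleeding in the brain. The labels do not tie the replicates to different cultures or litters, and p-values then measure only the spread between these libraries, which may be technical.

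Growth factor receptors such as PDGFRα switch on Ras, which activates the kinases Raf, MEK and ERK in turn. Active ERK enters the nucleus and raises the transcription of immediate early genes, and among the genes it induces are its own inhibitors. Dual-specificity phosphatases of the DUSP family remove phosphate from both the threonine and the tyrosine that activate a MAP kinase. Dusp1, Dusp2, Dusp4 and Dusp5 encode nuclear enzymes and Dusp6 a cytoplasmic one selective for ERK. Sprouty and Spred proteins act further upstream, at the step from receptor to Ras and Raf, Spred proteins by bringing the Ras inactivator neurofibromin to the membrane. In OPCs this cascade carries the signal of PDGF, the main mitogen of the lineage.

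Depth was even, with 6339966 to 6523639 expected counts over annotated genes per library. Levels are in FPKM, counts scaled by the authors for transcript length and library size, and differences are log2 fold changes of hemin over vehicle from edgeR on the expected counts. The quasi-likelihood test of edgeR covered 12779 genes, of which 31.9% were called at a Benjamini-Hochberg adjusted p below 0.05, 16.2% as higher with hemin and 15.7% as lower. Scaling by library totals alone in place of TMM moved the share of higher calls among all calls to 39.9%, against 50.8%. Without vehicle replicate 1 the count of calls was 2597 and without vehicle replicate 2 it was 2551, against 4077 with all libraries. The 6 OPC markers Pdgfra, Cspg4, Olig1, Olig2, Sox10 and Ptprz1 were listed in every library, and all 6 fell with hemin, to a summed 337 to 506 FPKM against 1112.5 to 1325.9 FPKM in vehicle libraries. In bulk RNA, fewer cells of a type and less RNA per cell cannot be told apart. The 5 astrocyte markers summed to 307 to 385 FPKM with hemin and 342 to 401 FPKM with vehicle, most of it from Slc1a3. They went apart, since Gja1 rose by 1.31 ± 0.16 on the log2 scale (edgeR adjusted p = 0.00155) and Aqp4 fell by 1.00 (adjusted p = 0.0181), and the Aqp4 call was lost without hemin replicate 2 or 3 or vehicle replicate 1 or 2 (adjusted p = 0.0639, 0.0551, 0.0583 and 0.0518). The 5 neuron markers summed to 42.3 to 64.0 FPKM with hemin and 75.0 to 103 FPKM with vehicle, and 2 of them fell, Neurod6 by 4.02 and Tubb3 by 1.37 on the log2 scale (edgeR adjusted p = 0.000338 and 0.00607). Rbfox3, Syt1 and Snap25 did not pass (edgeR adjusted p = 0.0698, 0.396 and 0.239). Snap25 leaned upward, at 28.2 ± 3.78 FPKM with hemin and 24.6 ± 3.71 FPKM with vehicle. Of the 6 microglia markers 3 could be tested and 0 passed, and they summed to 10.2 to 11.3 FPKM with hemin and 4.7 to 8.13 FPKM with vehicle. Of the 3 endothelial markers Pecam1 and Kdr could be tested, but only through the hemin libraries, where they were higher, so that their direction was fixed by the filter, and the markers had a sum of 3.04 to 3.63 FPKM with hemin and 0.27 to 0.61 FPKM with vehicle. Mature oligodendrocyte markers summed to 3.57 to 4.94 FPKM with hemin and 4.51 to 9.2 FPKM with vehicle, with Mog at 0 throughout. Fibroblast and pericyte markers summed to 1.53 to 8.36 FPKM with hemin and 1.07 to 3.48 FPKM with vehicle. The part of these markers' cell types in the values of the 10 genes was not tested.

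Promoters of 4 members are shown because they belong to the 3 genes with the greatest difference upward, Dusp1, Dusp2 and Dusp5, and to the gene with the greatest difference downward, Spry1. The sequences are the 250 bases before the RefSeq start on the gene's own strand, from the RefSeq promoter table of GRCm38.p6, in which 8 of the 10 members matched. Capitals mark the cyclic AMP response element TGACGTCA, its 5-letter core TGACG, and the CArG box bound by serum response factor, each searched on both strands.
Dusp1: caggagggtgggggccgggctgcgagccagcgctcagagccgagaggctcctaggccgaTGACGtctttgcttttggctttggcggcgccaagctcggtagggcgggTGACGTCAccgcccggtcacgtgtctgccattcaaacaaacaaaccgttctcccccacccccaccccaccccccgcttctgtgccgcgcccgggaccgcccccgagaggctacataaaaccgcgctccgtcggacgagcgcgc
Dusp2: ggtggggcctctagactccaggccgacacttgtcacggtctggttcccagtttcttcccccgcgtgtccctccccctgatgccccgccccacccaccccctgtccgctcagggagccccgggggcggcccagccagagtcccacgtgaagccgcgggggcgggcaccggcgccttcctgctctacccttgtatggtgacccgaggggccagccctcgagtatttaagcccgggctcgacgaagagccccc
Dusp5: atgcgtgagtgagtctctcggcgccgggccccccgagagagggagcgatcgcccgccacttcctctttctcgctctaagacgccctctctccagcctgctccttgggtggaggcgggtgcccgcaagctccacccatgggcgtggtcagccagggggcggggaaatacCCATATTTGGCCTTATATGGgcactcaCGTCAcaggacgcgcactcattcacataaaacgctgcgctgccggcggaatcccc
Spry1: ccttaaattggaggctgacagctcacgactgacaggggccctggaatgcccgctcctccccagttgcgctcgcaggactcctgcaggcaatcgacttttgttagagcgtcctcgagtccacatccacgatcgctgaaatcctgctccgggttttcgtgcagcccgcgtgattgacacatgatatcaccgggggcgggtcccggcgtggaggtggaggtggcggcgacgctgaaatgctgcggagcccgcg
The Dusp1 window lies at chr17:26508473-26508722 (minus strand), the Dusp2 window at chr2:127335909-127336158 (plus strand), the Dusp5 window at chr19:53528895-53529144 (plus strand) and the Spry1 window at chr3:37639697-37639946 (plus strand). Dusp1 holds the full element at -143 to -136 from the start and a further core at -191 to -187. Dusp5 holds a pair of CArG boxes side by side, at -82 to -73 and at -72 to -63, and a core at -55 to -51. The full element occurs in 1.55% of all 32851 windows in the table, its core in 17.8% and a CArG box in 1.47%. The core was also found in Spred2, and neither the element nor the CArG box in the Dusp2, Spry1, Spry2, Spred1 or Dusp6 window. Other motifs searched were the E-box CACGTG, present in Dusp1 and Dusp2 and in 6.02% of all windows, and the antioxidant response element TGACNNNGC, present in Dusp1 and Dusp5 and in 10.2%. In Dusp1 these overlap, the antioxidant response element at -133 to -125 and the E-box at -126 to -121. The AP-1 site TGANTCA (6.75% of windows), the heat shock element GAANNTTC (6.69%) and the ETS site CCGGAAGT (2.88%) were in none of the 8. These matches describe the letters of the windows and are not evidence of binding.

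Dusp1, Dusp2, Dusp4 and Dusp5, which encode nuclear phosphatases, were higher in each hemin library than in any vehicle library, while Dusp6 was not. Dusp1 (gene identifier 19252 in the files), which acts mainly on p38 and JNK, had 18.17, 16.36 and 14.07 FPKM in hemin replicates 1 to 3, against 4.61, 5.35 and 5.41 FPKM in vehicle replicates 1 to 3. Its lowest hemin library stood well above its highest vehicle library, with a log2 fold change of 1.72 ± 0.17 (SE, n = 3 per group), or 3.29-fold. Dusp2 (13537), a phosphatase best known from activated lymphocytes and macrophages, had 2.79, 3.06 and 2.35 FPKM in hemin libraries, against 0.51, 0.29 and 0.14 FPKM in vehicle libraries. It was the lowest of the 10 genes in both groups and rested on 39, 42 and 32 expected counts with hemin and 7, 4 and 2 with vehicle. Its log2 fold change of 3.15 ± 0.42 was the greatest of the 10 in edgeR with all libraries. Since Dusp2 passed the filter on low counts through the hemin libraries alone, it could be tested only because it was higher there. Each of the 6 microglia markers had a higher mean FPKM with hemin than with vehicle, with C1qa, a complement gene, at 6.42 ± 0.959 FPKM with hemin and 3.91 ± 1.78 FPKM with vehicle (edgeR adjusted p = 0.157), and their part in the Dusp2 value was not tested.

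Dusp4 (319520), which acts on ERK and JNK, had 34.3, 28.05 and 29.99 FPKM with hemin, against 15.38, 12.83 and 15.51 FPKM with vehicle. The groups were apart by a wide margin, at 2.19-fold (log2 fold change 1.13 ± 0.14). Dusp5 (240672), a phosphatase selective for ERK, had 11.39, 10.52 and 10.79 FPKM with hemin, against 2.68, 1.81 and 3.06 FPKM with vehicle. The 3 hemin libraries agreed closely, with a coefficient of variation of 4.09%, and the log2 fold change was 2.16 ± 0.25. Dusp6 (67603), the cytoplasmic ERK phosphatase, had 31.82, 26.05 and 23.76 FPKM with hemin, against 28.56, 29.32 and 34.6 FPKM with vehicle. Its groups overlapped and its log2 fold change was -0.12 ± 0.15. In GENCODE vM21 an antisense gene overlaps Dusp5, 1 opposite-strand entry overlaps Spry1 and 2 overlap Spry4. Dusp1 is overlapped by 2 opposite-strand entries, Ergic1 and a processed pseudogene, and by 2 entries on its own strand. The sources used here do not say if strand was kept, and reads of overlapping genes on opposite strands then cannot be told apart. For the same-strand entries of Dusp1, strand would not separate the reads either.

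**Figure D1:**
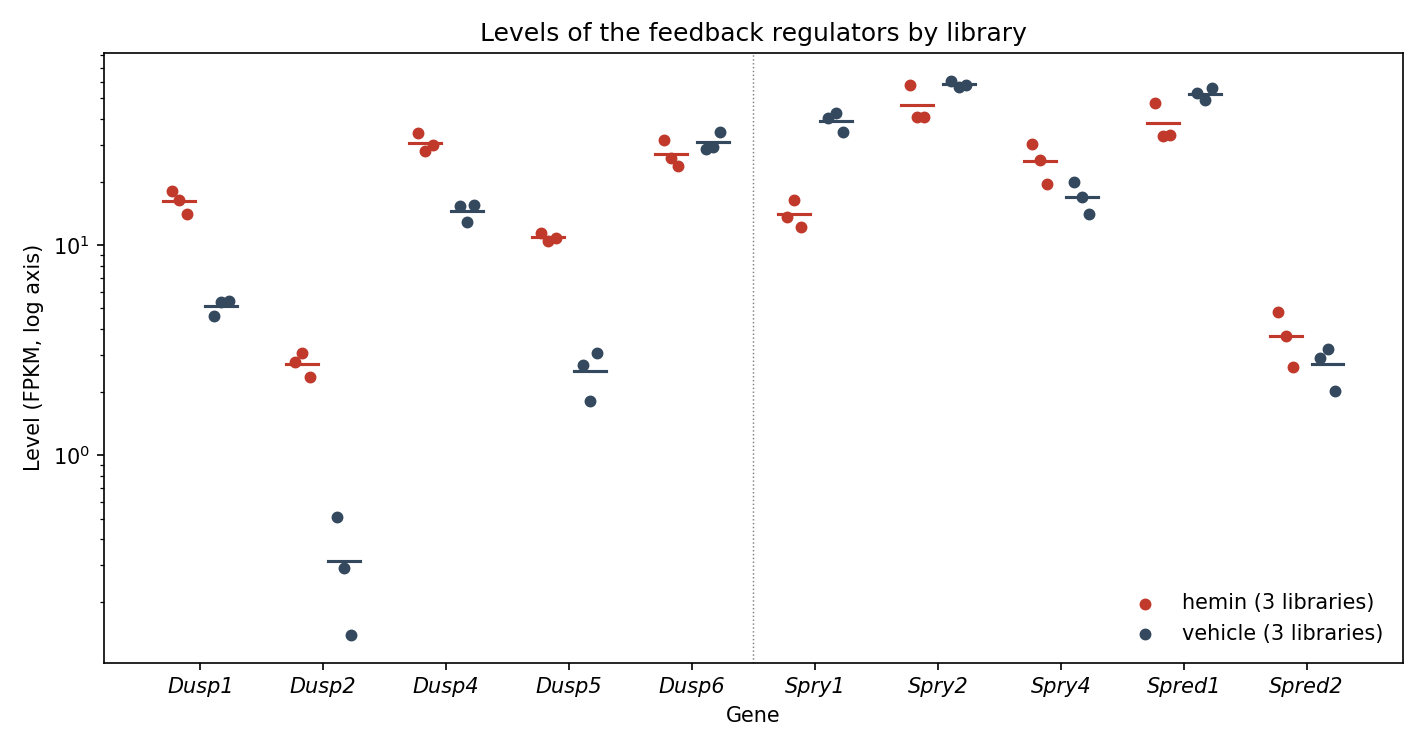
Level of each gene in FPKM on a log axis, with 3 hemin libraries on the left and 3 vehicle libraries on the right of each pair and a bar at the group mean. Dusp1, Dusp2, Dusp4 and Dusp5 have all hemin points above all vehicle points, Spry1 and Spred1 have all hemin points below, and the points of Dusp6, Spry2, Spry4 and Spred2 overlap.

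The Sprouty and Spred genes did not share a direction. Spry1 (24063), an inhibitor of signalling from receptors to Ras, had 13.63, 16.39 and 12.19 FPKM with hemin, against 40.21, 42.46 and 34.72 FPKM with vehicle. Its highest hemin library was under the lowest vehicle library by more than 2-fold, and the fitted difference was 2.67-fold lower with hemin (log2 fold change -1.42 ± 0.15). Spry4 (24066), a relative that also blocks Ras activation, leaned the other way, with 30.31, 25.43 and 19.61 FPKM with hemin against 19.97, 16.88 and 14.1 FPKM with vehicle. The lowest hemin library lay just below the highest vehicle library, and the log2 fold change was 0.62 ± 0.20. Spry2 (24064), which binds the ubiquitin ligase Cbl, had 57.84, 40.71 and 40.91 FPKM with hemin and 60.61, 56.72 and 57.73 FPKM with vehicle. One hemin library fell among the vehicle libraries and the other 2 lay below them all (log2 fold change -0.27 ± 0.17).

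Spred1 (114715), a Ras inhibitor that binds neurofibromin, had 47.36, 33.01 and 33.47 FPKM with hemin and 52.96, 49.19 and 55.82 FPKM with vehicle. In FPKM the hemin libraries all lay below the vehicle libraries, whereas after TMM scaling of the counts they overlapped, and the log2 fold change was -0.42 ± 0.17. Spred2 (114716), a further member of that family, was low in both groups, with 4.8, 3.69 and 2.63 FPKM with hemin and 2.92, 3.19 and 2.03 FPKM with vehicle (log2 fold change 0.51 ± 0.29). Hemin replicate 1 was the highest hemin library for Spry2, Spry4, Spred1 and Spred2. Without it, the log2 fold change was -0.49 for Spry2, -0.64 for Spred1, 0.43 for Spry4 and 0.25 for Spred2.

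**Figure D2:**
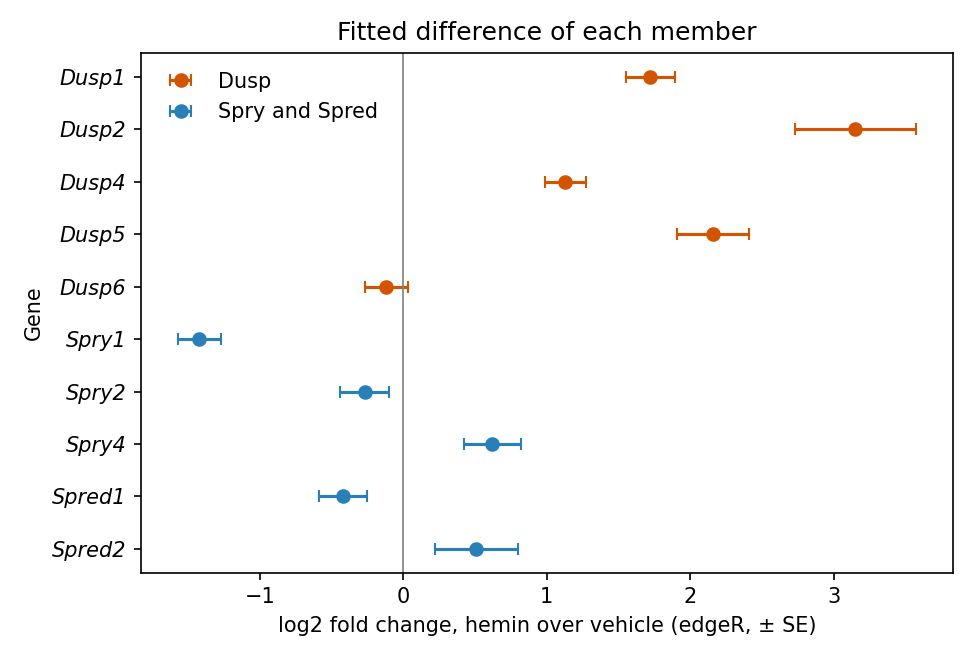
Fitted log2 fold change of hemin over vehicle for the 10 genes, with bars of ± 1 SE from edgeR (n = 3 per group). The Dusp genes run from -0.12 for Dusp6 to 3.15 for Dusp2, and the Spry and Spred genes from -1.42 for Spry1 to 0.62 for Spry4.

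All 10 genes could be tested, 9 of them with enough counts in both groups and Dusp2 through the hemin libraries alone. As a description only, 6 of the 10 were among the genes called by edgeR, Dusp1, Dusp2, Dusp4, Dusp5 and Spry4 higher and Spry1 lower, beside the 31.9% of all genes tested. After TMM scaling the groups did not overlap for 5 of the 10, beside 48.9% of all genes tested. Hemin libraries were above in 4 of them, beside 24.1%, and below in 1, beside 24.8%. Because the genes were chosen with this contrast known, neither count is a test of them or says anything of the family. The median log2 fold change was 1.72 over the 5 Dusp genes and -0.27 over the 5 Spry and Spred genes, beside 0.00 over all genes tested. The count of 6 depends on the setting, since Spry4 was not among the calls in 9 of 12 alternatives, among them every one that left out a vehicle library, hemin replicate 1 or hemin replicate 2. Spred1 was among them in 4 alternatives and Spry2 in 1, without hemin replicate 1.

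Levels per length put Spry2 and Spred1 at the top in both groups, at 46.5 ± 9.83 and 37.9 ± 8.16 FPKM with hemin and at 58.4 ± 2.02 and 52.7 ± 3.33 FPKM with vehicle (SD, n = 3). Below them the hemin order was Dusp4, Dusp6, Spry4, Dusp1, Spry1, Dusp5, Spred2 and Dusp2, and the vehicle order was Spry1, Dusp6, Spry4, Dusp4, Dusp1, Spred2, Dusp5 and Dusp2. With hemin, neighbours from Spry2 down to Spry4 overlapped between libraries, as did Dusp1 with Spry1 and Spred2 with Dusp2. With vehicle only Spry4 with Dusp4, and Spred2 with Dusp5, overlapped among neighbours. Spry1 thus held the seventh place with hemin and the third with vehicle, and Dusp4 the third place with hemin and the sixth with vehicle.

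Summed over the 5 Dusp genes, the level was 98.5, 84.0 and 81.0 FPKM in hemin libraries, against 51.7, 49.6 and 58.7 FPKM in vehicle libraries. The sum over the 5 Spry and Spred genes was 154, 119 and 109 FPKM with hemin, against 177, 168 and 164 FPKM with vehicle. The Dusp genes accordingly made up 41.0% ± 1.87 of the summed FPKM of all 10 with hemin and 23.9% ± 2.08 with vehicle (SD, n = 3). Within the Dusp sum, Dusp6 accounted for 30.9% ± 1.49 with hemin and 57.7% ± 2.21 with vehicle, while Dusp1 accounted for 18.4% ± 1.04 with hemin and 9.64% ± 1.01 with vehicle. Dusp4 was the leading Dusp gene with hemin, at 35.1% ± 1.85 of that sum, against 27.3% ± 2.09 with vehicle. Within the Sprouty and Spred sum, Spry1 made up 11.3% ± 2.45 with hemin and 23.0% ± 2.06 with vehicle, and Spry4 19.7% ± 1.65 with hemin and 9.97% ± 1.36 with vehicle.

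Ratios of 2 genes within a library do not depend on how libraries are scaled, and 4 such pairs were picked after values were seen. Dusp4 over Dusp6 was 1.08, 1.08 and 1.26 in hemin libraries, against 0.539, 0.438 and 0.448 in vehicle libraries. Spry4 over Spry1 was 2.22, 1.55 and 1.61 in hemin libraries, against 0.497, 0.398 and 0.406 in vehicle libraries. In these pairs each hemin library exceeded 1 and each vehicle library was below it, so the leading gene of the pair differed between the groups. In the other pairs the leading gene was the same in both groups. Dusp1 over Dusp6 was 0.571, 0.628 and 0.592 in hemin libraries, against 0.161, 0.182 and 0.156 in vehicle libraries. Spry4 over Spry2 was 0.524, 0.625 and 0.479 in hemin libraries, against 0.329, 0.298 and 0.244 in vehicle libraries.

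**Figure D3:**
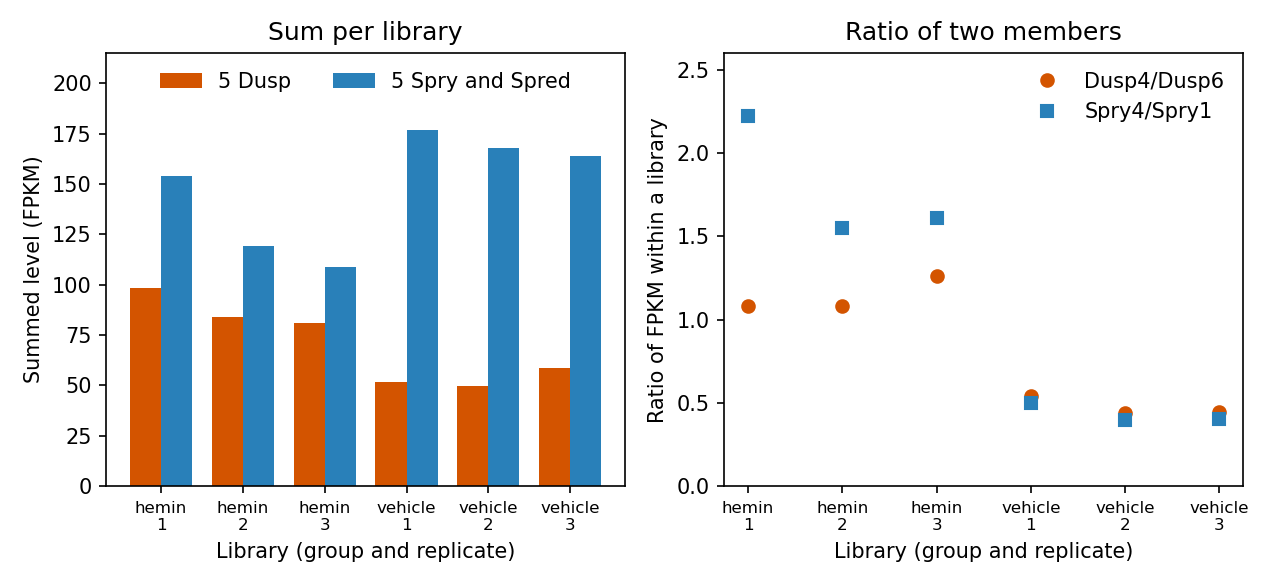
Left, summed FPKM of the 5 Dusp and the 5 Spry and Spred genes in each library, with bars from 0; right, the ratio of FPKM of Dusp4 to Dusp6 and of Spry4 to Spry1 within each library. The Dusp sum is 81.0 to 98.5 FPKM with hemin and 49.6 to 58.7 FPKM with vehicle, and both ratios are above 1 in the hemin libraries and below 1 in the vehicle libraries.

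Of the 10 genes, Spry1 and Spred1 had more than 1 transcript in the files. Spry1 has 4, of 2163, 2204, 2452 and 2493 bases. The 2163-base transcript had 3.49, 0 and 8.02 FPKM with hemin and 17.78, 22.11 and 17.64 FPKM with vehicle, the 0 meaning that it was not listed. The 2204-base transcript had 8.91, 14.1 and 2.00 FPKM with hemin and 18.17, 14.23 and 11.33 FPKM with vehicle. These estimates moved against each other between replicates while the sum for the gene stayed between 12.19 and 16.39 FPKM with hemin, so the split between them is less certain than the sum. The 2493-base transcript had 0.77, 0.91 and 0 FPKM with hemin and 4.26, 3.74 and 2.81 FPKM with vehicle, and the 2452-base one stayed at or below 2.94 FPKM in every library. Spred1 came almost wholly from its 6319-base transcript, with 46.7, 32.52 and 33.31 FPKM with hemin and 52.63, 48.48 and 55.43 FPKM with vehicle. Its 2007-base transcript stayed at or below 0.71 FPKM.

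The hemin libraries were not alike for these genes. Hemin replicate 1 was the highest of the 3 for 8 of the 10, the exceptions being Dusp2 and Spry1, whose highest was replicate 2, beside 41.3% of all genes tested. Spred2, Spred1, Spry2 and Spry4 stood at 129%, 125%, 124% and 121% of their hemin mean in that library. Dusp6 stood at 117%, Dusp1 at 112%, Dusp4 at 111%, Dusp5 at 104%, Dusp2 at 102% and Spry1 at 96.9%. The same library had the lowest Pdgfra, 12.58 FPKM against 31.63 and 26.89 FPKM in hemin replicates 2 and 3. Olig1, Sox10 and Ptprz1 were also lowest in hemin replicate 1, while Cspg4 lay between the other hemin libraries. Olig2 was highest there, at 94.79 FPKM against 60.67 and 42.3 FPKM in hemin replicates 2 and 3. Hmox1, the heme oxygenase induced by heme, was also highest in that library, at 3044.77 FPKM against 2298.42 and 2455.51 FPKM. What sets that library apart was not tested. The coefficient of variation was 21.2% to 21.5% for Spry2, Spry4 and Spred1 with hemin. The median with hemin was 13.4% over 7683 genes with a mean of at least 5 FPKM. With vehicle it was 3.46% for Spry2, 17.3% for Spry4 and 6.32% for Spred1, beside a median of 7.77% over the same genes. Spred2, whose mean was below 5 FPKM, had 29.3% with hemin and 22.4% with vehicle.

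**Figure D4:**
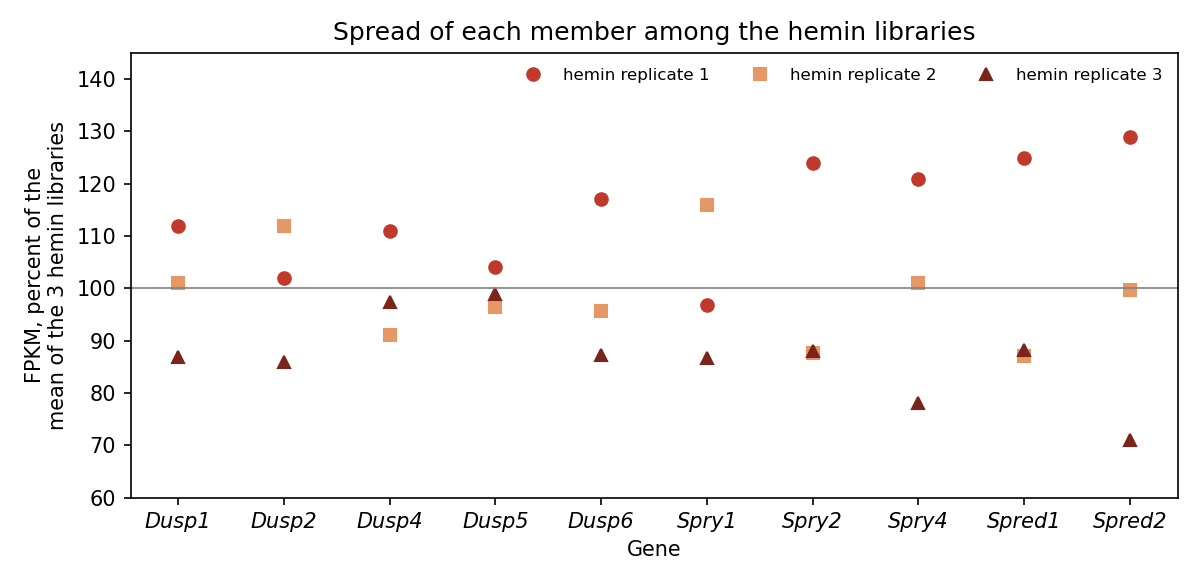
FPKM of each gene in the 3 hemin libraries as a percentage of their mean. Hemin replicate 1 is the highest point for 8 genes, reaching 129% for Spred2, and the points of Dusp5 lie closest together, from 96.5% to 104%.

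A set of 10 lists of genes around these regulators held 110 tested genes, of which 26 rose and 20 fell, or 41.8% in all, beside the 31.9% of all genes. The immediate early list alone, with 15 tested genes, gave 13 of the 26 rises. The lists were chosen with earlier results of these data known, so these shares are a description. Of the 46 calls in the lists, 4 were of genes that passed the filter on low counts only through the group where they were higher, namely Egr2, Egr3, Fosb and Ksr2. Their adjusted p-values are from edgeR's quasi-likelihood test over all 12779 genes. Among the 4 other MAP kinase phosphatases tested, Dusp16, which acts on JNK and p38, rose to 25.5 ± 2.17 FPKM with hemin, against 8.10 ± 0.783 FPKM with vehicle (log2 fold change 1.69 ± 0.12, adjusted p = 0.000249). Dusp7, a cytoplasmic ERK phosphatase close to Dusp6, fell to 2.88 ± 0.220 FPKM, against 4.61 ± 0.284 FPKM (-0.62 ± 0.16, adjusted p = 0.0232). Dusp8 and Dusp10 did not pass, with adjusted p-values of 0.0843 and 0.0704, and Dusp9 was too low to test. Of 11 atypical DUSPs tested, which lack the kinase-binding domain of the MAP kinase phosphatases, 2 rose and 1 fell, beside 16.2% and 15.7% of all genes. Their median log2 fold change was -0.13. Dusp14 rose by 1.17 ± 0.20 (adjusted p = 0.00509) and Dusp11, which acts on RNA, by 0.41 ± 0.11 (adjusted p = 0.0302), while Dusp15 had a change of -0.80 ± 0.25 (adjusted p = 0.0464). Spry3 fell to 0.863 ± 0.0252 FPKM with hemin, against 2.11 ± 0.578 FPKM with vehicle (-1.23 ± 0.26, adjusted p = 0.0109), and Spred3 did not pass (0.47 ± 0.46, adjusted p = 0.472).

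Several of those calls did not hold when a library was left out. In edgeR the adjusted p of Dusp7 was 0.0638 without hemin replicate 2, 0.0565 without hemin replicate 3, and 0.0904, 0.0654 and 0.0577 without vehicle replicates 1, 2 and 3. For Dusp11 it was 0.0863 without hemin replicate 2 and 0.0874, 0.0864 and 0.0575 without vehicle replicates 1, 2 and 3, and its call was also lost without the filter on low counts (0.0505) and with replicate number as a blocking term (0.0535). Dusp15 kept its call in 2 of 12 alternatives, with an adjusted p of up to 0.402 in limma. In edgeR its adjusted p was 0.0882 and 0.128 without hemin replicates 1 and 2, and 0.161, 0.0503 and 0.122 without vehicle replicates 1, 2 and 3. Dusp14, Dusp16 and Spry3 passed in all 12.

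Other brakes on receptors and Ras split evenly, with 3 of 11 higher and 3 lower, beside 16.2% and 15.7% of all genes. Their median log2 fold change was 0.23. Errfi1, an inducible inhibitor of the EGF receptor, rose to 11.8 ± 1.90 FPKM with hemin, against 4.60 ± 0.336 FPKM with vehicle (1.41 ± 0.15, adjusted p = 0.00093, edgeR). Flrt3, a membrane protein that binds FGF receptors, rose by 0.79 ± 0.20 (adjusted p = 0.0203) and Lrig3, a membrane regulator of receptors, by 0.78 ± 0.25 (adjusted p = 0.0466). Rasa3, a Ras GTPase-activating protein, fell to 42.1 ± 2.82 FPKM, against 71.6 ± 7.18 FPKM (-0.71 ± 0.11, adjusted p = 0.00303). Lrig1, which promotes receptor degradation, fell to 35.0 ± 6.61 FPKM, against 54.4 ± 1.07 FPKM (adjusted p = 0.0267), and Il17rd, an FGF antagonist, to 0.857 ± 0.332 FPKM, against 1.70 ± 0.052 FPKM (adjusted p = 0.0276). Among 8 binding partners of Sprouty and Spred proteins, 1 rose and none fell, beside 16.2% and 15.7% of all genes. That gene was Siah2, a ubiquitin ligase of Sprouty proteins, at 12.8 ± 3.04 FPKM with hemin and 5.58 ± 0.711 FPKM with vehicle (adjusted p = 0.00545). Nf1, which encodes neurofibromin, had 5.59, 6.1 and 3.28 FPKM with hemin and 5.03, 4.04 and 4.54 FPKM with vehicle (edgeR adjusted p = 0.576).

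The calls of 4 of these genes turned on single libraries. In edgeR the adjusted p of Flrt3 was 0.0707 and 0.0588 without hemin replicates 2 and 3, and 0.0513, 0.0591 and 0.0659 without vehicle replicates 1, 2 and 3. That of Lrig1 was 0.0675 without hemin replicate 2 and 0.0743, 0.0772 and 0.0637 without vehicle replicates 1, 2 and 3. For Il17rd it was 0.0608 and 0.0815 without hemin replicates 1 and 2, and 0.0863, 0.0773 and 0.0707 without vehicle replicates 1, 2 and 3. Lrig3 kept its call in 1 of 12 alternatives, without hemin replicate 1. Its edgeR adjusted p was 0.132 and 0.121 without hemin replicates 2 and 3, and 0.134, 0.0639 and 0.12 without vehicle replicates 1, 2 and 3.

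Of 20 tested genes of the ERK cascade, 1 rose and 3 fell, beside 16.2% and 15.7% of all genes, with a median log2 fold change of -0.11. Mapk3, which encodes ERK1, stood at 23.5 ± 5.88 FPKM with hemin and at 27.1 ± 2.74 FPKM with vehicle (edgeR adjusted p = 0.527). The adaptor Shc1 rose by 1.35 ± 0.19 (adjusted p = 0.00267). The phosphatase Ptpn11, which is needed for Ras activation, fell to 25.1 ± 3.92 FPKM with hemin, against 36.0 ± 1.42 FPKM with vehicle (adjusted p = 0.0399). Ksr2, a scaffold of the cascade, lay below 1 FPKM and was the third gene counted as lower, but it could be tested only through the vehicle libraries, where it was higher. Its edgeR adjusted p was 0.0299 with all libraries, 0.0621, 0.0614 and 0.0624 without hemin replicates 1, 2 and 3, and 0.103 and 0.111 without vehicle replicates 1 and 2. For Ptpn11 the edgeR adjusted p was 0.12 and 0.0835 without hemin replicates 2 and 3, 0.0805, 0.106 and 0.104 without vehicle replicates 1, 2 and 3, and 0.0599 with replicate number as a blocking term.

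In the JNK, p38 and ERK5 cascades 7 of 18 tested genes fell and 2 rose, beside 15.7% and 16.2% of all genes, with a median log2 fold change of -0.26. Map3k1 and Map3k4, kinases at the top of the JNK and p38 branches, fell by 1.26 and 1.20 on the log2 scale (edgeR adjusted p = 0.000482 and 0.00636), and Mapk7, which encodes ERK5, by 0.83 (adjusted p = 0.00214). Mapk14, the p38 kinase p38α, which lies outside the naming rule, fell by 0.69 (adjusted p = 0.00743). Map2k3, an activator of p38, rose by 1.34 ± 0.21 (adjusted p = 0.00371), and Mapk10, the JNK of neural tissue, by 0.71 ± 0.17 (adjusted p = 0.0182). The Mapk10 call was lost without hemin replicate 2 or vehicle replicate 2 (edgeR adjusted p = 0.059 and 0.066). Of 15 receptor tyrosine kinases 4 fell, beside 15.7% of all genes. Pdgfra, the PDGF receptor of OPCs, fell by 2.30 on the log2 scale, Kit, the stem cell factor receptor, by 1.37 and Ntrk2, the BDNF receptor, by 0.87 (edgeR adjusted p = 0.00222, 0.00136 and 0.00182). The fourth, outside the naming rule, was Fgfr3 (-0.48 ± 0.14, adjusted p = 0.0344), with an edgeR adjusted p of 0.0503 and 0.0965 without hemin replicates 1 and 2 and of 0.124, 0.0569 and 0.0954 without vehicle replicates 1, 2 and 3. Met, the receptor of hepatocyte growth factor, rose by 1.92 ± 0.24 (adjusted p = 0.00165). Egfr stood at 39.9 ± 6.03 FPKM with hemin and 42.6 ± 5.06 FPKM with vehicle (adjusted p = 0.512), and Fgfr1 at 21.8 ± 2.37 FPKM with hemin and 22.6 ± 4.18 FPKM with vehicle (adjusted p = 0.992).

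Immediate early genes are, as a class, transcribed within minutes of stimulation, whereas these cultures were kept in hemin or vehicle for 12 h. Of the 15 on this list 13 rose, beside 16.2% of all genes tested, with a median log2 fold change of 3.82. The list was chosen with earlier results of these data known, so the count is a description and not a test of the list. Egr2, Egr3 and Fosb could be tested only through the hemin libraries. Of the 12 with enough counts in both groups 10 rose, with a median of 2.96. Egr1 rose by 4.66 ± 0.27, Fosl1 by 5.10 ± 0.30 and Atf3 by 6.45 ± 0.41 (edgeR adjusted p = 0.000191, 0.000191 and 0.000199). The remaining 2, Myc and Srf, did not pass (adjusted p = 0.17 and 0.843). Of 6 genes of an ERK output signature, which also holds Dusp4, Dusp6, Spry2 and Spry4, 2 rose, beside 16.2% of all genes. They were Phlda1, a regulator of cell survival, at 58.3 ± 7.60 FPKM with hemin and 12.8 ± 0.826 FPKM with vehicle (2.25 ± 0.14, adjusted p = 0.000199), and the ephrin receptor Epha2 at 7.03 ± 1.17 FPKM with hemin and 0.873 ± 0.250 FPKM with vehicle (3.05 ± 0.23, adjusted p = 0.000317). The ERK-induced ETS factors Etv4 and Etv5, the cyclin Ccnd1 and the receptor Epha4 did not pass, with edgeR adjusted p-values of 0.44, 0.086, 0.677 and 0.657. Etv5 stood at 55.4 ± 8.92 FPKM with hemin and 75.7 ± 8.20 FPKM with vehicle, and Ccnd1 at 209 ± 55.7 FPKM with hemin and 199 ± 18.7 FPKM with vehicle.

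**Figure D5:**
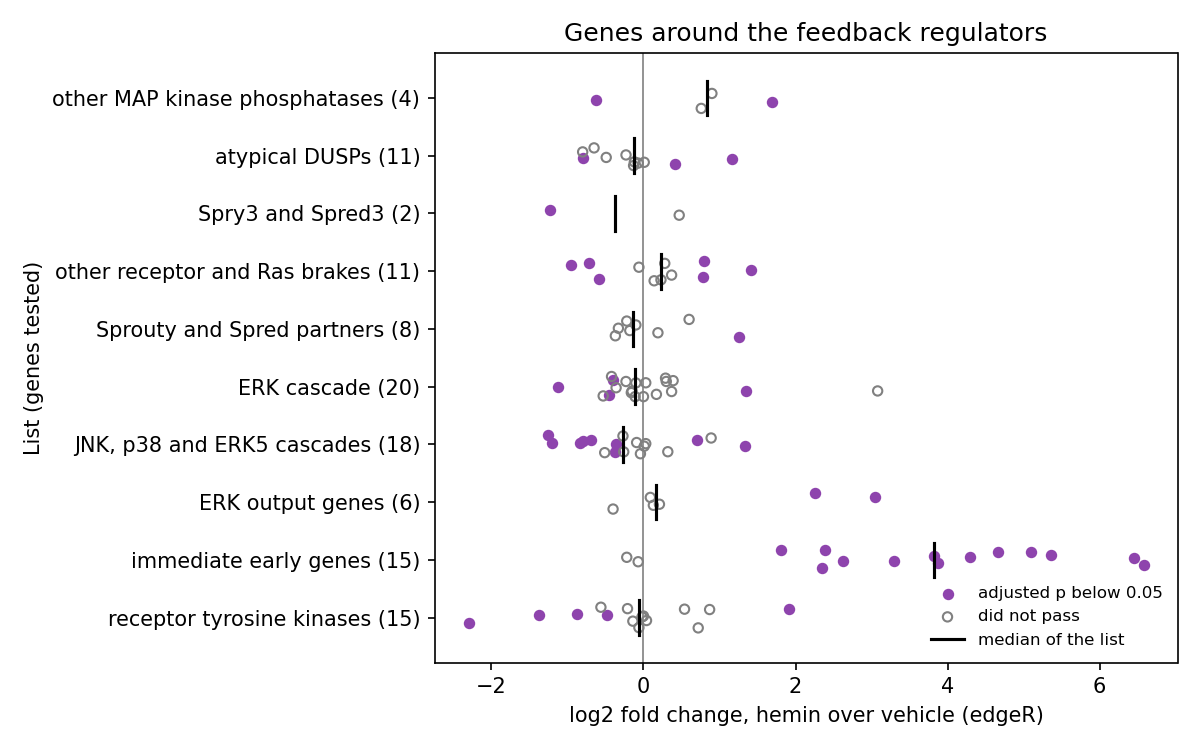
Log2 fold change of hemin over vehicle for the tested genes of 10 lists, with filled points at an edgeR adjusted p below 0.05, open points for genes that did not pass and a black line at the median of each list. The immediate early genes stand furthest to the right, with a median of 3.82, and the other medians lie between -0.38 and 0.83. The lists were chosen with earlier results of these data known.

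As a description of pattern, log-scaled CPM of each member was correlated over the 6 libraries with the other tested genes whose mean was at least 5 FPKM. With only 6 libraries in 2 groups, many genes reach a high Pearson's r with any gene that differs between the groups. The nearest pair was Jag1 and Dnajc2 for Dusp1, Ctps and Cggbp1 for Dusp2, Lonrf3 and Cdkn1a for Dusp4, Tgif1 and Anxa7 for Dusp5, and Prpf8 and Cdc25a for Dusp6. It was Eml1 and St6galnac5 for Spry1, Ankrd52 and Sap18 for Spry2, Zfp110 and Arhgap18 for Spry4, Rnf103 and Hira for Spred1, and Cebpg and Yes1 for Spred2. The r of these pairs ran from 0.9839 for Dusp6 with Cdc25a to 0.9999 for Dusp5 with Tgif1.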

How the data were processed

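RNA-seq of 3 hemin and 3 vehicle libraries was analysed, grouped by the sample titles. Bowtie 0.12.2, RSEM and both mm8 and mm9 are named, without roles, per the submitters' processing notes. Per the file headers, the authors deposited expected counts, which are estimated reads per transcript, and FPKM, scaled by the authors for length and library size. The tables list only transcripts above 0, so an absent gene was set to 0. Transcripts were summed by gene identifier to 18743 genes, and symbols for 18711 came from the RefSeq table of GRCm38.p6. Unannotated features were not used.

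Expected counts were rounded. Low genes were removed with filterByExpr by group (edgeR 4.0.16, R 4.3.3), libraries were scaled by TMM, and hemin was tested against vehicle without covariates, two-sided, by the quasi-likelihood test with Benjamini-Hochberg adjustment over 12779 genes. The filter can be passed through 1 group alone. Each SE was obtained by dividing the absolute log2 fold change by the square root of F. Depth was 6339966 to 6523639 counts per library. No molecular identifiers are described, so PCR duplicates count as reads.

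The members and gene lists were chosen with earlier results of these data known. Named beside the members are, per list, up to 3 called genes in each direction with the smallest p and a mean of at least 1 FPKM in the higher group, and every called gene of the phosphatase, Sprouty and output lists. Genes named outside this rule, Fgfr3, Ksr2, Mapk14, the cell type markers and those that did not pass among them, were chosen after their values were seen. Likeness took the 2 genes with the highest r. A few list genes are counted but not reported here by name. The tests were tried on simulated data. Alternatives were DESeq2 1.42.0, library totals alone, limma 3.58.1 on log2(FPKM + 1) and log2(FPKM + 0.1), no filter, each library left out, and the replicate number as a block.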

Additional observations from a re-analysis of the deposited data

How the results depend on the processing

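Across 12 alternative settings Dusp1, Dusp2, Dusp4 and Dusp5 had a positive log2 fold change and Spry1 a negative one, and Dusp6, Spry2, Spry4, Spred1 and Spred2 kept their sign; the members were chosen on this contrast, so this is no support for it. The median over the 5 Dusp genes was 1.49 in limma on log2(FPKM + 1), 1.64 in limma on log2(FPKM + 0.1) and 1.62 with library totals alone, against 1.72; the cause was not tested. Dusp2 came to 1.51 in limma on log2(FPKM + 1), against 3.15, and in that setting it stood below Dusp5, at 1.77. Leaving out 1 library gave medians of 1.59 to 1.83 for the Dusp genes and -0.49 to -0.17 for the Spry and Spred genes, 32 to 49 calls among the listed pathway genes (46 with all libraries) and 2551 to 4530 calls over all genes, against 4077. Of the 30 pathway genes that the naming rule took, 20 passed in every alternative and 10 lost the call in at least 1. The replicate block gave 3728 calls over all genes, 43 among the pathway genes, and medians of 1.71 and -0.29. Same-numbered hemin and vehicle libraries deviated together with a Pearson's r of 0.0631, 0.1 and 0.157 across genes, and every library correlated best with its own number. The labels state no pairing, so the main fit took none. These r values do not decide whether the number marks a pairing. Depth limits Dusp2 most, with 2 to 7 counts per vehicle library.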
